A study of Homo sapiens with 15 samples.

Results

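The Krüppel-like factors (KLF) are a family of DNA-binding proteins, and 10 of their genes, chosen by name, are described here across fed, starved and SRSF1-depleted human cells: KLF2, KLF3, KLF4, KLF5, KLF6, KLF9, KLF10, KLF11, KLF13 and KLF16. All 10 were found among the 19966 genes of the deposited table, and 9 of them passed the filter on low values that left 11123 genes for testing; KLF2 did not pass and is given by its values alone. The cells were 293T, a line derived from human embryonic kidney that the labels call renal epithelial, grown in DMEM with 10% fetal bovine serum. The SRSF1 knockdown libraries came from cells starved of serum for 12 h in which SRSF1, a splicing factor, was depleted, and the study's design names a short hairpin against it. The starved libraries came from wild-type cells after 12 h without serum, and the fed libraries from wild-type cells with 0 h of starvation. Each of these 3 groups has 3 libraries. None of the 3 groups is labelled as carrying a non-targeting hairpin, so the hairpin vector and the loss of SRSF1 cannot be told apart. The labels do not say whether replicates were separate cultures, whether the knockdown cells were a pool or 1 clone, or on which day each library was made, so p-values measure the spread between these libraries, which may be technical.

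KLF proteins carry a block of zinc fingers at their C terminus that binds GC boxes and CACCC boxes in promoters, the same sites that the SP proteins bind. Their N-terminal parts differ and decide which partners they recruit. KLF2, KLF4, KLF5 and KLF6 mostly act as activators, KLF3 is a repressor that recruits CtBP proteins, and KLF9, KLF10, KLF11, KLF13 and KLF16 bind the SIN3A corepressor. Several of the genes are known to respond to growth factors within hours: KLF2 and KLF4 lie downstream of the ERK5 kinase and MEF2 factors, KLF10 and KLF11 were found as early genes induced by TGF-beta, and KLF9 is induced by glucocorticoid and thyroid hormones.

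The promoter sequences of 4 members are given because their transcripts behaved differently in the comparisons that follow: KLF11 and KLF2 had their lowest levels in starved cells, KLF4 was highest in SRSF1 knockdown cells, and KLF9 was lowest there. Each is the stretch just upstream of a transcription start annotated by RefSeq on GRCh38.p14, written 5′ to 3′ on the gene's own strand with annotated exon bases left off, in lower case with motif matches in capitals. The capitals mark GC boxes (GGGCGG, searched on both strands), cAMP response elements (TGACGTCA, which reads the same on both strands) and CCAAT boxes (CCAAT, searched on both strands). The KLF11 stretch lies at chr2:10043971-10044174 on the plus strand, 250 to 47 bases before the second annotated start. The KLF2 stretch lies at chr19:16324576-16324816 on the plus strand, the KLF4 stretch at chr9:107489770-107490019 on the minus strand and the KLF9 stretch at chr9:70414658-70414907 on the minus strand. The KLF4 stretch lies inside the GENCODE gene span, chr9:107484852-107490482, so the start it precedes is downstream of the gene's 5′ end there.
KLF11: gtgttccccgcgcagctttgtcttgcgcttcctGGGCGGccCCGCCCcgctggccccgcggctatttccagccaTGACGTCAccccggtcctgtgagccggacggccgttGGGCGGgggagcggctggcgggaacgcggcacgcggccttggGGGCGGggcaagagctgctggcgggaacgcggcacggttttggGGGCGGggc
KLF2: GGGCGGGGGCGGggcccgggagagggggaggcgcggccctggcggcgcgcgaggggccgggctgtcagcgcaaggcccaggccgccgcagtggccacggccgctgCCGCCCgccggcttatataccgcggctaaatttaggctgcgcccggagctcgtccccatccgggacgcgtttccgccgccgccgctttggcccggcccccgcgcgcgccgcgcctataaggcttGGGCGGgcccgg
KLF4: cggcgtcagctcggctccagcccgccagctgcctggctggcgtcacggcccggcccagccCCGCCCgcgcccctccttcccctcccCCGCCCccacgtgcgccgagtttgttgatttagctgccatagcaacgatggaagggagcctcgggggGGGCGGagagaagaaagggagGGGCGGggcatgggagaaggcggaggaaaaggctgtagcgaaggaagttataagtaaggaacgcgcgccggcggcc
KLF9: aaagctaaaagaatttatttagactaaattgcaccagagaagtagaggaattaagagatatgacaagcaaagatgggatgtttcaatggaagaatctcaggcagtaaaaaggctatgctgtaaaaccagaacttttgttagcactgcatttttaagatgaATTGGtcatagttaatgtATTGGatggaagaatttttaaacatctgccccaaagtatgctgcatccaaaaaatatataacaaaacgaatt
The KLF11, KLF2 and KLF4 stretches hold 5, 4 and 4 GC boxes, while the KLF9 stretch holds 0 GC boxes and 2 CCAAT boxes and has a GC content of 32.4%. Among windows not shown, that of KLF16 holds 7 GC boxes and that of KLF13 holds 3, and neither gene was called in the main fit. For KLF5, called higher in the knockdown than in starved cells, 1 window holds 0 GC boxes at 40.8% GC and another holds 2. A link between these motifs and the changes was not tested. KLF3 and KLF10 had no window among the RefSeq promoters used, so neither could be shown. Of the 35116 promoter windows of 250 bases upstream of a start in the RefSeq table, 42.6% hold a GC box, and 8 of the 10 windows that matched 8 of the members hold one. The cAMP response element occurs in 1.65% of all windows and in 1 of these 10, that of KLF11, where its last 2 bases overlap the single CACCC match. CCAAT occurs in 32.0% of all windows and in 4 of the 10, CACGTG (an E-box) in 6.34% and 3 of the 10, and CACCC in 54.7% and 4 of the 10. The CArG box, the motif of serum response factor, occurs in 1.16% of all windows and in 0 of the 10. These are matches of letters, and no binding was measured.

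The deposited values are gene counts divided by a size factor per library, called normalised counts here. Whole reads were taken from the values in 8 of the 9 libraries and summed to between 11775367 and 15231651 per library. SRSF1 itself had 2390, 2455 and 2382 normalised counts in SRSF1 knockdown libraries, 3344, 3189 and 3205 in starved libraries and 2588, 2485 and 2472 in fed libraries. It was lower in the knockdown than in starved cells (log2 fold change −0.42 ± 0.07 SE, limma adjusted p = 0.000997) while the test against fed cells was not passed (−0.06 ± 0.07, adjusted p = 0.590). In GENCODE, 56.6% of the exonic bases of SRSF1 are shared with another gene, annotated as protein-coding, on the same strand. SRSF1 knockdown replicate 3 stood apart, with Pearson correlations of 0.969 and 0.976 with its own group, against 0.994 between the other two, and a mitochondrial share of 5.56%, against 3.52% and 3.75%. Starved replicate 2 correlated at 0.987 and 0.988 with the other starved libraries. Of 8 genes typical of the 293T line, 6 averaged at least 1 FPKM (VIM, KRT8, KRT18, NEFM, NEFL and CDH2), while PAX2 and LHX1 did not, and summed levels were 144 to 179 FPKM in SRSF1 knockdown, 80.8 to 93.1 FPKM in starved and 123 to 139 FPKM in fed libraries. Fibroblast markers, of which only COL1A1 of 6 averaged 1 FPKM, summed to 4.14 to 4.59 FPKM in SRSF1 knockdown, 2.71 to 3.42 FPKM in starved and 5.75 to 5.87 FPKM in fed libraries.

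Per transcript length, the family spanned more than an order of magnitude in these cells. FPKM here is the normalised count divided by gene length and by 1 constant for all libraries. In SRSF1 knockdown cells KLF10, a SIN3A-binding repressor, led the family at 13.4 ± 2.998 FPKM (SD, n = 3), followed by KLF6 at 10.6 ± 0.0424 FPKM and KLF16 at 9.91 ± 1.62 FPKM. In starved cells the order was led by KLF16 at 11.1 ± 2.01 FPKM, KLF9 at 9.96 ± 0.872 FPKM and KLF6 at 9.23 ± 0.407 FPKM (n = 3), which overlapped as neighbours. In fed cells KLF9 at 10.1 ± 0.878 FPKM, KLF6 at 9.49 ± 0.101 FPKM and KLF16 at 8.84 ± 0.632 FPKM came first (n = 3), and each again overlapped its neighbour. KLF10 thus stood first in the knockdown and below KLF16, KLF9 and KLF6 in both starved and fed cells, at 6.32 ± 0.152 FPKM in starved and 7.43 ± 0.594 FPKM in fed cells. The middle of the order, KLF5, KLF3 and KLF13, lay between 5.16 and 7.23 FPKM on average in every group, and KLF3 and KLF13 overlapped in all 3 groups. KLF11 averaged 4.56 ± 0.135 FPKM in SRSF1 knockdown cells, 1.09 ± 0.145 FPKM in starved cells and 4.46 ± 0.207 FPKM in fed cells (n = 3 each). It overlapped KLF4 in starved cells but lay above the KLF4 range in the other groups. KLF4 and KLF2 were the lowest pair in each group, and their ranges overlapped in fed cells. KLF4 averaged 1.94 ± 0.280 FPKM in SRSF1 knockdown, 0.939 ± 0.309 FPKM in starved and 1.07 ± 0.200 FPKM in fed cells (n = 3 each).

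**Figure D1:**
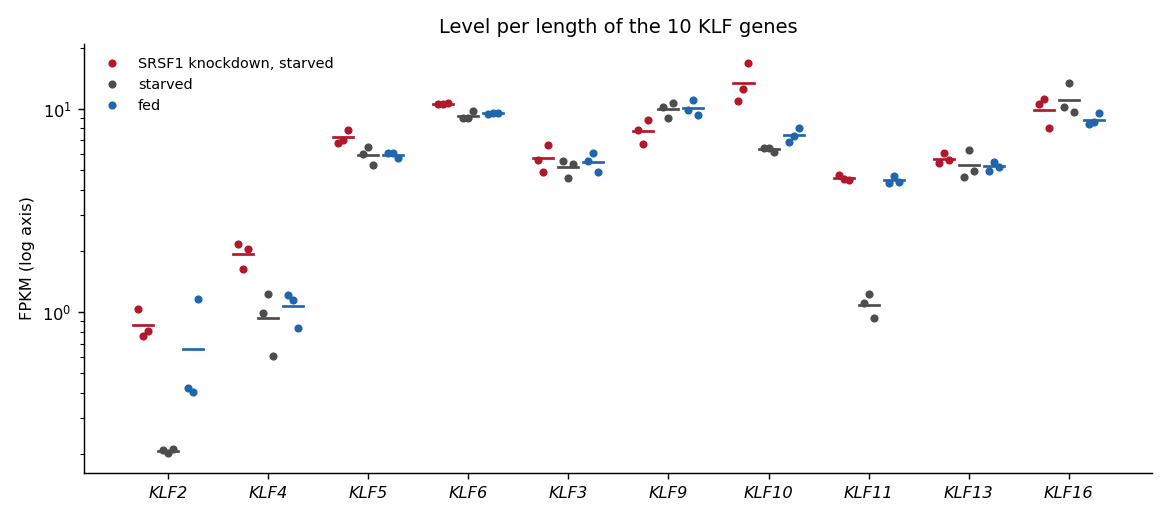
Levels of the 10 KLF genes in FPKM on a log axis, with 1 point per library and a bar at the group mean, for SRSF1 knockdown, starved and fed 293T cells (3 libraries each). KLF10, KLF6, KLF9 and KLF16 lead, KLF2 and KLF4 are lowest, and KLF11 averages 1.09 FPKM in starved cells, against 4.46 FPKM in fed cells.

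The first comparison asks what 12 h without serum did to the family. KLF11 fell in starved cells, and it was the only one of the 9 tested members to pass the test in that comparison. It is a TGF-beta-inducible repressor that slows growth in several cell types. KLF11 (ENSG00000172059, chr2:10042849-10054836, plus strand) had 69.1, 76.0 and 58.1 normalised counts in starved libraries and 268, 292 and 272 in fed libraries. The 2 groups were far apart, and the starved mean was 0.244 times the fed mean. The log2 fold change was −1.39 ± 0.08 (SE, limma adjusted p = 1.96e-06), the 73rd lowest of 11123 genes. Members called numbered 0 higher and 1 lower of 9, against 42.8% of all tested genes called in either direction (21.5% higher and 21.3% lower). Under TPM scaling the genes called split into 1407 higher and 2717 lower, against 2394 higher and 2369 lower with the deposited scaling, and KLF11 was called under both. The median log2 fold change over the 9 members was −0.04, against 0.03 over all genes tested. In the GENCODE annotation 9.07% of the exonic bases of KLF11 are shared with an antisense transcript, and how strand was counted is not given in the sources used here.

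KLF10 and KLF16 also had starved and fed libraries that did not overlap, in opposite directions, but neither passed the test. KLF10 (ENSG00000155090, chr8:102648784-102655725, minus strand) is the paralogue closest to KLF11 in function, also induced early by TGF-beta. It had 333, 332 and 319 normalised counts in starved libraries and 358, 380.0 and 418 in fed libraries, with a log2 fold change of −0.20 ± 0.13 (adjusted p = 0.236). KLF16 (ENSG00000129911, chr19:1852399-1863579, minus strand), a SIN3A-binding repressor, had 409, 538 and 388 normalised counts in starved libraries and 338, 344 and 385 in fed libraries. Its starved libraries were all above the fed ones, by a small margin at the nearest pair, and the log2 fold change was 0.28 ± 0.14 (adjusted p = 0.123). KLF16 has the most GC-rich transcript of the family, at 67.8% GC against a median of 48.6% over tested genes, and with trends on GC content and length removed per library it passed (0.42, adjusted p = 0.00176). It shares 16.3% of its exonic bases with an antisense transcript. Across all tested genes, 59.2% had starved and fed libraries that did not overlap, against 3 of the 9 members.

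The remaining 6 tested members had overlapping starved and fed libraries and log2 fold changes between −0.10 and 0.01. KLF6 (ENSG00000067082, chr10:3775996-3785281, minus strand), a tumour suppressor and injury-response factor, had 750.2, 748 and 808 normalised counts in starved libraries and 781, 797 and 792 in fed libraries. KLF9 (ENSG00000119138, chr9:70384604-70414657, minus strand), the hormone-responsive member, had 719, 635 and 754 in starved libraries and 698, 777 and 655 in fed libraries. In both genes the fed values lay within the starved range or interleaved with it. KLF5 (ENSG00000102554, chr13:73054976-73077541, plus strand), which promotes proliferation in many epithelia, had 299, 324 and 263 normalised counts in starved libraries and 301, 301 and 286 in fed libraries. KLF13 (ENSG00000169926, chr15:31326835-31435665, plus strand), known in T cells for activating the chemokine gene CCL5, had 591, 802 and 631 in starved libraries and 634, 701 and 661 in fed libraries. KLF3 (ENSG00000109787, chr4:38664197-38701517, plus strand), the CtBP-dependent repressor, had 511, 421 and 491 in starved libraries and 510, 555 and 450 in fed libraries. KLF4 (ENSG00000136826, chr9:107484852-107490482, minus strand), a differentiation factor also used to reprogram cells to pluripotency, had 49.1, 60.6 and 30.2 in starved libraries and 60.3, 56.8 and 41.7 in fed libraries, so its starved libraries spanned the fed ones.

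**Figure D2:**
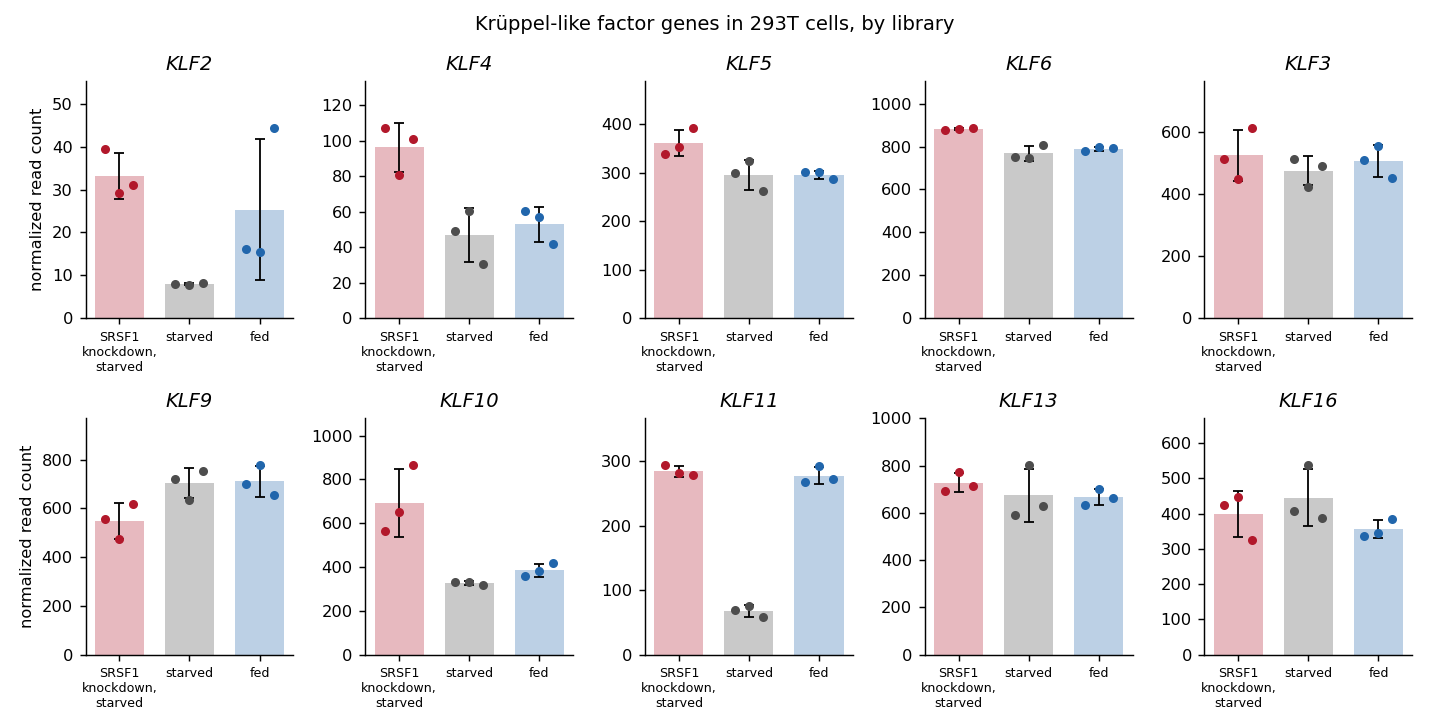
Normalised counts of each of the 10 KLF genes, 1 panel per gene with its own axis from 0, with 1 point per library and the mean with SD for SRSF1 knockdown, starved and fed cells (n = 3 each). KLF11 averages 67.8 normalised counts in starved cells against 278 in fed cells, and KLF10 averages 693 in SRSF1 knockdown cells against 328 in starved cells.

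The second comparison asks what SRSF1 depletion did among cells that all lacked serum for 12 h. KLF11, KLF10, KLF4 and KLF5 were higher in the knockdown and KLF9 was lower, so that 5 of the 9 tested members were called, against 46.4% of all tested genes (22.5% higher and 23.9% lower). That share is near the background. The members' median log2 fold change was 0.18, against −0.04 over all genes tested. This comparison uses the same starved libraries as the one above, so the 2 comparisons are not independent.

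KLF11 rose most among the members. It had 294, 281 and 278 normalised counts in SRSF1 knockdown libraries, against 69.1, 76.0 and 58.1 in starved libraries, with no overlap. The knockdown mean was 4.20 times the starved mean (log2 fold change 1.42 ± 0.08, limma adjusted p = 1.59e-06), the 81st highest of 11123 genes. KLF10 had 564, 649 and 866 normalised counts in SRSF1 knockdown libraries, against 333, 332 and 319 in starved libraries. All 3 knockdown libraries lay above all starved ones, and the highest was replicate 3, the library that stood apart. The mean ratio was 2.12 (0.95 ± 0.13, adjusted p = 0.000244), and without that library the log2 fold change was 0.79 (adjusted p = 0.000103). KLF4 had 107, 80.5 and 101 normalised counts in SRSF1 knockdown libraries, against 49.1, 60.6 and 30.2 in starved libraries, again without overlap. The mean ratio was 2.06, and the log2 fold change, 0.61 ± 0.13 (adjusted p = 0.00354), understates it because KLF4 lies near the pseudocount of 1 FPKM.

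KLF5 and KLF9 changed less, and their calls were lost on leaving out any of several libraries and under other settings. KLF5 had 339, 352 and 391 normalised counts in SRSF1 knockdown libraries, against 299, 324 and 263 in starved libraries (0.25 ± 0.09, adjusted p = 0.0419). Its groups did not overlap, but the call was lost without knockdown replicate 2 (adjusted p = 0.0667) or 3 (0.0862), without starved replicate 1 (0.0822) or 3 (0.167), and without fed replicate 1 (0.0636), 2 (0.0649) or 3 (0.0619). It was also lost with replicate number as a block (adjusted p = 0.0589). KLF9, the member that fell, had 556, 473 and 618 normalised counts in SRSF1 knockdown libraries, against 719, 635 and 754 in starved libraries (−0.32 ± 0.11, adjusted p = 0.0315). Its groups did not overlap either, and the call was lost without knockdown replicate 1 (adjusted p = 0.0619) or 2 (0.111) and without starved replicate 1 (0.0884) or 3 (0.110). The KLF9 call was also lost under TPM scaling (limma adjusted p = 0.149), under quantile scaling (0.0582) and with only the 2 groups fitted (0.0630). The edgeR quasi-likelihood test on recovered reads called neither KLF5 (adjusted p = 0.0800) nor KLF9 (adjusted p = 0.115).

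KLF6 had the tightest knockdown values of the family, 878, 881 and 885 normalised counts in SRSF1 knockdown libraries, against 750.2, 748 and 808 in starved libraries. The groups did not overlap and the mean ratio was 1.15, but the test was not passed (0.18 ± 0.07, adjusted p = 0.0593). KLF6 did pass with no filter on low values (adjusted p = 0.0414), under median-ratio scaling (0.0424) and under quantile scaling (0.0249). KLF3 (513, 447 and 610 normalised counts in SRSF1 knockdown libraries), KLF13 (693, 772 and 716) and KLF16 (424, 447 and 324) overlapped their starved libraries, with log2 fold changes of 0.12, 0.10 and −0.14. With GC and length trends removed, KLF3 (0.19, adjusted p = 0.0401) and KLF16 (−0.24, adjusted p = 0.0284) passed. In all, 6 of the 9 members had knockdown and starved libraries that did not overlap, against 51.0% of all tested genes.

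**Figure D3:**
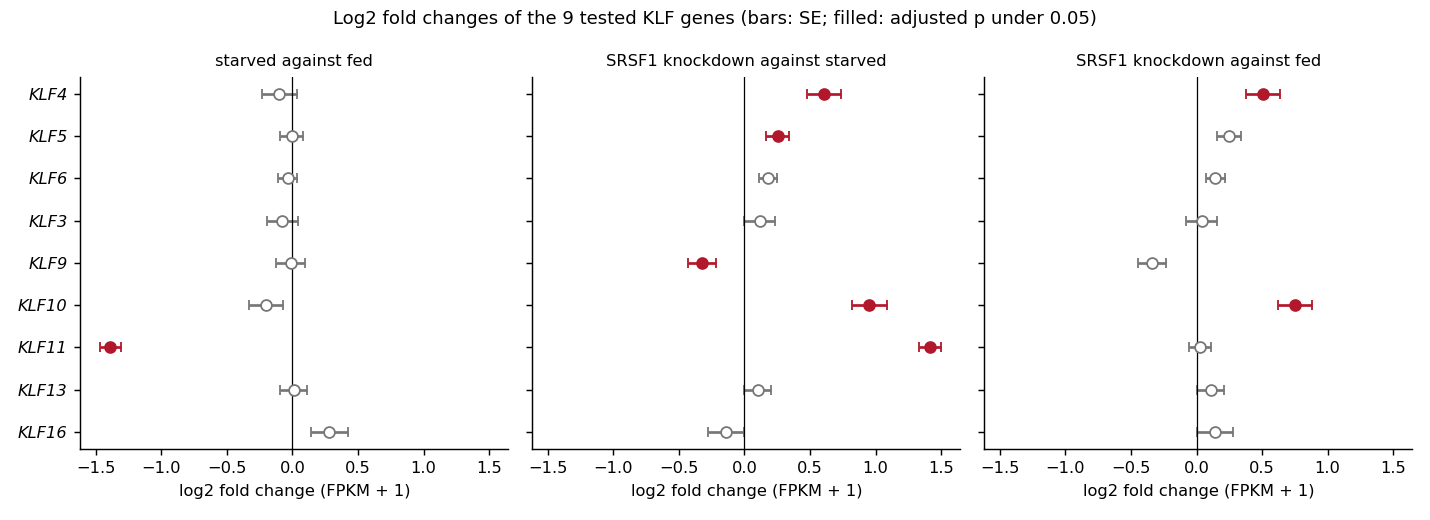
Log2 fold changes of log2(FPKM + 1) with SE bars for the 9 tested KLF genes in starved against fed, SRSF1 knockdown against starved, and SRSF1 knockdown against fed cells, filled where the limma adjusted p was under 0.05. KLF11 stands at −1.39 in starved against fed cells and at 1.42 in knockdown against starved cells, and KLF10 at 0.95 and 0.75 in the 2 knockdown comparisons.

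The third comparison sets SRSF1 knockdown against fed cells, groups that differ by label in both serum and the hairpin, and in which the SRSF1 transcript was not called different (log2 fold change −0.06 ± 0.07, limma adjusted p = 0.590). KLF10 and KLF4 were higher in the knockdown, and 0 members were called lower: 2 of 9 members were called, against 18.5% of all tested genes (9.27% higher and 9.23% lower). KLF10 averaged 693 ± 155 normalised counts in SRSF1 knockdown cells and 385 ± 30.8 in fed cells (SD, n = 3 each), a mean ratio of 1.80 (log2 fold change 0.75 ± 0.13, limma adjusted p = 0.00400), the 123rd highest of 11123 genes. Without knockdown replicate 3 the log2 fold change was 0.59 (adjusted p = 0.00230). KLF4 averaged 96.2 ± 13.9 normalised counts in SRSF1 knockdown cells and 52.9 ± 9.91 in fed cells (n = 3 each), with libraries that did not overlap (0.51 ± 0.13, adjusted p = 0.0241). That call was lost without knockdown replicate 1 (adjusted p = 0.0696) and without fed replicate 1 (0.0537), 2 (0.0599) or 3 (0.0894).

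KLF11 averaged 284 ± 8.40 normalised counts in SRSF1 knockdown cells and 278 ± 12.9 in fed cells (n = 3 each), and the libraries of the 2 groups interleaved (0.03 ± 0.08, adjusted p = 0.837). The log2 fold change turned slightly negative under TPM scaling (−0.00853) and with GC and length trends removed (−0.04). KLF9 averaged 549 ± 72.9 normalised counts in SRSF1 knockdown cells and 710.1 ± 61.9 in fed cells (n = 3 each), with no overlap and a log2 fold change of −0.34 ± 0.11 (adjusted p = 0.0534). It passed with GC and length trends removed (−0.40, adjusted p = 0.00424), also with the replicate block added (0.0105), at the filter of 5 FPKM (0.0497), without knockdown replicate 3 (−0.42, adjusted p = 0.0205) and without starved replicate 2 (0.0450). KLF5 and KLF6 had log2 fold changes of 0.25 ± 0.09 (adjusted p = 0.0818) and 0.14 ± 0.07 (adjusted p = 0.180), and KLF3, KLF13 and KLF16 of 0.04, 0.11 and 0.14. Of the 9 members 5 had knockdown and fed libraries that did not overlap, against 41.1% of all tested genes. The median over the members was 0.14, against −0.01 over all genes.

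**Figure D4:**
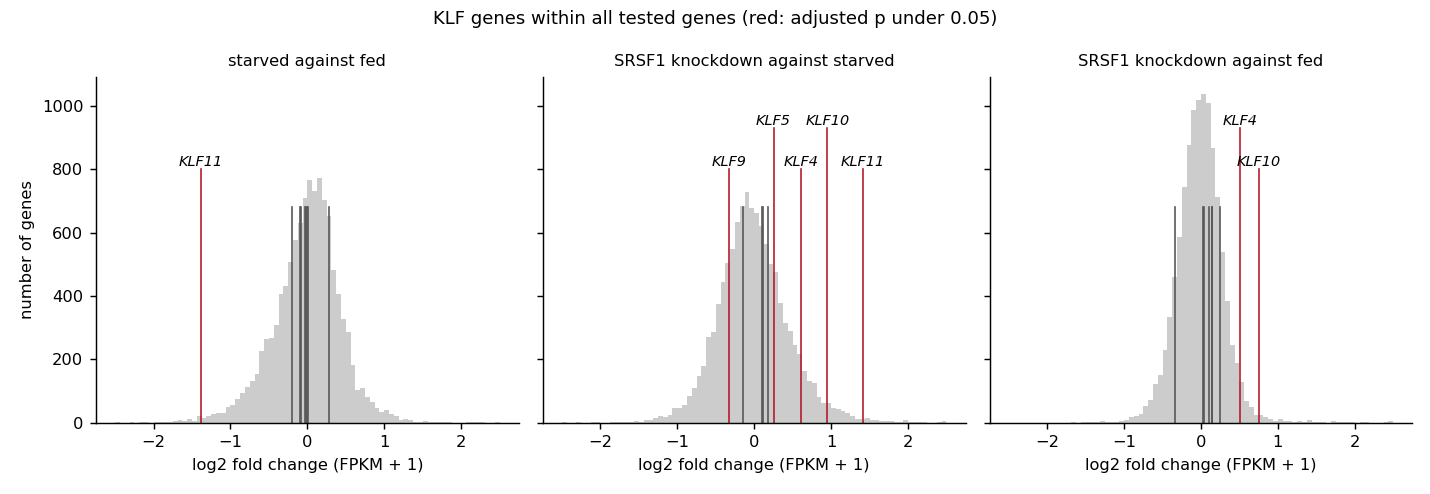
Distribution of log2 fold changes over all 11123 tested genes (histogram, number of genes per bin, values beyond 2.5 drawn at the edge) in the 3 comparisons, with vertical lines for the 9 tested KLF genes. Labelled red lines passed the test at an adjusted p of 0.05, 5 of them in SRSF1 knockdown against starved cells, and dark grey lines did not.

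KLF2, an activator best known from endothelium under flow and from resting T cells, was too low to pass the filter. It is encoded at chr19:16324826-16328685 on the plus strand (ENSG00000127528). KLF2 had 39.4, 29.2 and 31.0 normalised counts in SRSF1 knockdown libraries, 8.01, 7.71 and 8.14 in starved libraries, and 16.2, 15.4 and 44.3 in fed libraries. All starved libraries lay below all others, whereas the fed libraries spanned the knockdown ones, since fed replicate 3 was far above replicates 1 and 2. In reads these were 35, 33 and 30 in SRSF1 knockdown libraries, 7 and 7 in the 2 starved libraries whose reads were taken, and 18, 16 and 50 in fed libraries. The knockdown mean was 4.17 times the starved mean, and the starved mean was 0.314 times the fed mean. In a fit with no filter, KLF2 passed in SRSF1 knockdown against starved cells (log2 fold change 0.63, limma adjusted p = 0.0123), but not in starved against fed (−0.43, adjusted p = 0.0584) or knockdown against fed cells (0.20, adjusted p = 0.446). The 6 endothelial markers, none of which averaged 1 FPKM, summed to 0.174 to 1.32 FPKM in SRSF1 knockdown, 0.0573 to 0.223 FPKM in starved and 0.194 to 0.486 FPKM in fed libraries. The starved range of this sum overlapped the other 2 ranges, and a part of endothelial cells in the KLF2 values was not tested. In bulk RNA, a change in the number of expressing cells and a change in RNA per cell cannot be told apart, for KLF2 as for the other members.

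Across the 9 libraries the members did not follow 1 profile. Among members, the Pearson correlation of log2(FPKM + 1) was highest for KLF4 with KLF5 (0.915), then KLF6 with KLF10 (0.891), and lowest for KLF3 with KLF16 (−0.809). The genes most like KLF11 over the 9 libraries were ARL10 and NEURL1B (0.997 each). Those most like KLF10 were RERE and TFDP2 (0.988 each), and those most like KLF9 were RUNX1T1 (0.993) and TRIM33 (0.992). KLF6 was most like FBXW4 (0.991), KLF16 like PPP1R9B (0.983), KLF3 like ZNF518B (0.975), KLF5 like C11orf80 (0.974), KLF4 like INAVA (0.952) and KLF13 like MDH2 (0.948). For no tested member was another KLF gene among its 2 most similar genes. These correlations describe 3 groups of 3 libraries that share their scaling.

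Outside the 10 members, KLF15 moved opposite to KLF11. KLF15 is a metabolic regulator induced by fasting and glucocorticoids in liver and muscle. It had 265, 281 and 230.3 normalised counts in SRSF1 knockdown libraries, 626, 733 and 757 in starved libraries, and 223, 194 and 238 in fed libraries. It rose in starved against fed cells (log2 fold change 1.53 ± 0.11, limma adjusted p = 4.59e-06), fell in SRSF1 knockdown against starved cells (−1.32 ± 0.11, adjusted p = 8.66e-06), and its difference between knockdown and fed cells was not called (0.21 ± 0.11, adjusted p = 0.186). In starved cells its level, 18.5 FPKM, was above that of each of the 10 members. KLF7 and KLF12 passed the test in 0 comparisons, and KLF1, KLF8, KLF14, KLF17 and KLF18 did not pass the filter, none exceeding 0.484 FPKM in any library. Of 8 other KLF genes listed, 3 were thus tested. In each of the first 2 comparisons 1 of these 3 was called, against 42.8% and 46.4% of all tested genes.

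The SP proteins share the DNA-binding site of the KLF family. In starved against fed cells 3 of 7 tested SP genes rose and 1 fell, and in SRSF1 knockdown against starved cells 2 rose and 4 fell, against 42.8% and 46.4% of all tested genes called in either direction. SP1, SP2 and SP4 rose in starved cells by log2 fold changes of 1.05 ± 0.12, 1.07 ± 0.15 and 1.08 ± 0.12 (limma adjusted p at most 0.000276), while SP6 fell (−0.51 ± 0.10, adjusted p = 0.00274). In SRSF1 knockdown against starved cells SP4 fell by 1.18 on the log2 scale, SP1 by 0.67 and SP2 by 0.65, and SP6 rose (0.49 ± 0.10). Thus SP1, the main GC-box activator, averaged 3490 ± 723 normalised counts in SRSF1 knockdown cells, 5555 ± 291 in starved cells and 2617 ± 58.0 in fed cells (n = 3 each). In knockdown against fed cells 0 of 7 SP genes passed, against 18.5% of all tested genes, and SP1 had a log2 fold change of 0.38 ± 0.12 (adjusted p = 0.0556).

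**Figure D5:**
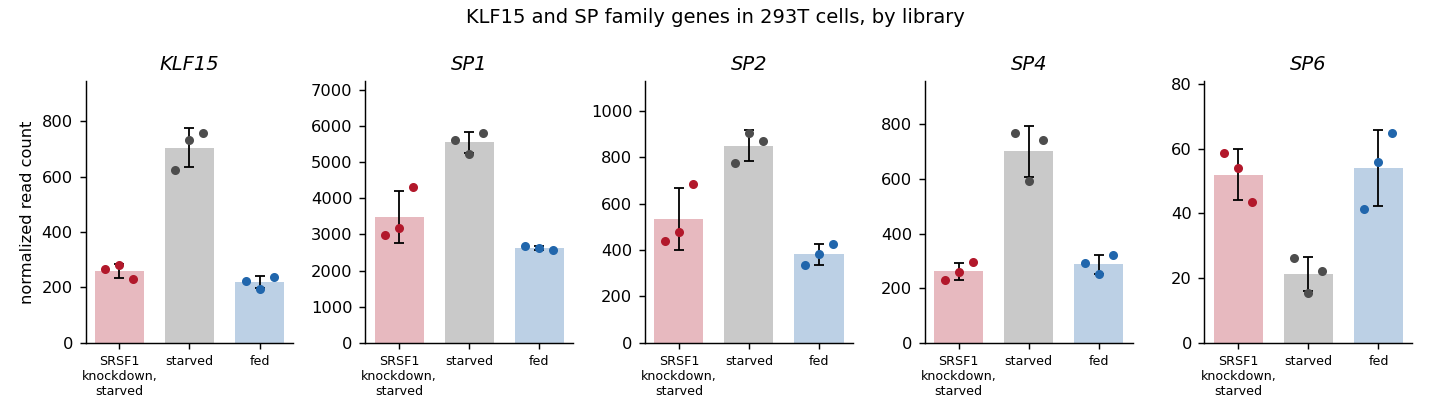
Normalised counts of KLF15, SP1, SP2, SP4 and SP6, 1 panel per gene from 0, with 1 point per library and the mean with SD in SRSF1 knockdown, starved and fed cells (n = 3 each). KLF15, SP1, SP2 and SP4 are highest in starved cells, and SP6 is lowest there. KLF15 averages 705 normalised counts in starved cells, against 259 in SRSF1 knockdown and 218 in fed cells.

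The partners and regulators of KLF proteins were taken as whole lists, whose counts stand against 42.8% of all tested genes called in starved against fed, 46.4% in knockdown against starved and 18.5% in knockdown against fed cells. Of 11 corepressors and coactivators, all tested, 3 rose and 2 fell in starved against fed cells, 2 rose and 2 fell in knockdown against starved cells, and 2 rose in knockdown against fed cells. CTBP1, the partner of KLF3, fell in starved cells (−0.49 ± 0.10, limma adjusted p = 0.00285) and was higher in the knockdown than in starved cells (0.53 ± 0.10, adjusted p = 0.00153), and SAP30, a subunit of the SIN3A complex, rose in starved cells (0.81 ± 0.17, adjusted p = 0.00328) and in knockdown against fed cells (0.89 ± 0.17, adjusted p = 0.00635). SIN3A itself, singled out after its values were seen, was not called in any comparison, with log2 fold changes of 0.29, −0.02 and 0.28 in the same order. Of 7 tested genes of the ERK5 branch above KLF2 and KLF4, 1 rose in starved against fed cells, and 2 rose in knockdown against starved and 2 in knockdown against fed cells, among them the kinase gene MAP3K3 (0.46 ± 0.08, adjusted p = 0.00364) and MEF2D (0.46 ± 0.09, adjusted p = 0.00674) in the last. Of 12 other upstream factors, 2 rose and 3 fell in starved against fed cells, 3 rose and 2 fell in knockdown against starved cells, and 1 rose in knockdown against fed cells. SRF, the serum response factor, rose in starved cells (0.63 ± 0.10, adjusted p = 0.000588) and fell in knockdown against starved cells (−0.42 ± 0.10, adjusted p = 0.00592), as did its partner ELK4 (1.06 ± 0.15 and −1.08 ± 0.15). ELK3, another partner of SRF, moved the opposite way, lower in starved against fed cells (−0.80 ± 0.11, adjusted p = 0.000281) and higher in knockdown against starved cells (0.74 ± 0.11, adjusted p = 0.000428). Of 8 ubiquitin ligases that act on KLF proteins, 3 rose in starved against fed cells, 2 fell in knockdown against starved cells and 0 passed in knockdown against fed cells.

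Described target genes of KLF proteins numbered 18, of which 12 were tested. The list was chosen with earlier results of these data known, so its counts are a description and no test of KLF activity. It is not split by whether a KLF protein raises or lowers the gene. In starved against fed cells 0 rose and 6 fell, against 21.5% higher and 21.3% lower among all tested genes, with a list median of −0.28, against 0.03 over all genes. In SRSF1 knockdown against starved cells 6 rose and 1 fell, against 22.5% higher and 23.9% lower among all tested genes, with a median of 0.42, against −0.04 over all genes. In knockdown against fed cells 3 rose and 1 fell, against 9.27% higher and 9.23% lower among all tested genes, with a median of −0.06, against −0.01. TGFB1, which is itself described as a KLF6 and KLF10 target, averaged 504 ± 39.9 normalised counts in SRSF1 knockdown cells, 255 ± 22.5 in starved cells and 535.5 ± 40.4 in fed cells (n = 3 each). It fell in starved against fed cells (−0.95 ± 0.09, limma adjusted p = 3.34e-05), where CCND1 (−0.51 ± 0.07) fell too. CDKN1A, the cell-cycle inhibitor p21 and a target of KLF4 and KLF6, averaged 1161 ± 193 normalised counts in SRSF1 knockdown cells, 478 ± 53.7 in starved cells and 451 ± 11.3 in fed cells (n = 3 each), and rose in knockdown against starved (1.20 ± 0.12, adjusted p = 3.99e-05) and against fed cells (1.28 ± 0.12, adjusted p = 0.000138). CCL5, the KLF13 target, was likewise higher in the knockdown than in starved (1.12 ± 0.12) and in fed cells (1.41 ± 0.12), while KLF13 itself had log2 fold changes of 0.10 and 0.11 there and passed in neither. CDH1 was the listed gene that fell in knockdown against fed cells (−0.44 ± 0.10, limma adjusted p = 0.0114). It averaged 1.01 FPKM in the knockdown and 1.73 FPKM in fed cells. No binding of a KLF protein to these genes was measured.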

How the data were processed

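RNA was measured by sequencing in 293T cells; per the labels, libraries were made from total RNA with a SMARTER mRNA kit. Of 15 samples in 5 groups, 9 libraries in 3 groups have a column in the table used here, and 6 (SRPK1 and UPF1 knockdown) were not analysed here. The aligner and counter are not given in the sources used here. Per the submitters' processing notes the build is mm10, but 19849 of the gene identifiers are human ones of GENCODE 29, 19801 of them at an overlapping GRCh38 position, so GRCh38 coordinates are given as in the table.

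The authors' deposited table calls its values FPKM. The deposited signal values were whole multiples of 1 step per library in all 9 libraries (100% of values within 1e-08), as gene counts divided by a size factor are, so they were treated as normalised counts and divided by gene length to give FPKM. Genes with at least 1 FPKM in at least 3 libraries were kept, and log2(FPKM + 1) was fitted with limma 3.58.1 (trend, 3 group means over 9 libraries) in R 4.3.3, with Benjamini-Hochberg adjustment over all 11123 genes at 0.05. Fold changes are on the log2(FPKM + 1) scale and understate low genes. The code was tested on simulated data. The alternatives were other pseudocounts, filters, scalings, limma options, a replicate block, removal of GC and length trends, edgeR 4.0.16 on recovered reads of 8 libraries (those of starved replicate 1, whose step is 1.0015, near 1, were not taken), and leaving out each library.

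The members and lists were chosen with earlier results of these data known. All members were named, and from each list at most 4 called genes with the largest change; among these, the examples in the text were picked after their values were seen, from those whose call held without each library in turn, apart from list counts. Beside each tested member the genes with the highest Pearson correlation over 9 libraries were named.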

Additional observations from a re-analysis of the deposited data

How the results depend on the processing

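Over 23 settings, 9 of them leaving out 1 library, KLF11 in starved against fed cells, KLF11, KLF10 and KLF4 in knockdown against starved cells, and KLF10 in knockdown against fed cells kept their calls wherever they were tested, with log2 ranges of −2.08 to −1.26, 1.32 to 2.11, 0.79 to 1.12, 0.47 to 1.10 and 0.59 to 0.88. The filter of 5 FPKM removes KLF11 and KLF4. Causes of the other shifts were not tested. In starved against fed cells, 3119 genes and 0 members were called at the 5 FPKM filter, and 2 members with GC and length trends removed, with or without the replicate block. In knockdown against starved cells, 3416 genes and 3 members were called at 5 FPKM. Fitting only the 2 groups called 3 members, as did edgeR. Median-ratio scaling called 6 and removal of GC and length trends 7. With no filter 6 were called, among them KLF2, which the main fit does not test, while KLF5 was not called. Leaving out a library gave 3 to 5 (3 without knockdown replicate 2, starved replicate 1 or starved replicate 3). In knockdown against fed cells, 3238 genes were called with GC and length trends removed, and 853 to 2499 genes and 1 to 3 members on leaving out a library, with 853, 1002 and 1062 genes without fed replicates 1, 2 and 3.

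Changes of sign touched members that were not called. In starved against fed cells these were KLF13 (−0.088 under TPM scaling, −0.00713 under median-ratio scaling), KLF4 (0.074) and KLF5 (0.00897) under quantile scaling, and, on leaving out a library, KLF4 (−0.20 to 0.029), KLF5 (−0.066 to 0.063), KLF9 (−0.065 to 0.051) and KLF13 (−0.10 to 0.084). In knockdown against starved cells KLF13 was −0.024 with GC and length trends removed, with or without the block. In knockdown against fed cells KLF11 was −0.00853 under TPM scaling and −0.038 with GC and length trends removed, with or without the block, where SRSF1 was 0.012, and KLF3 ranged over −0.060 to 0.13 on leaving out a library. Of 53 calls on other named genes, 15 were lost without at least 1 library: EP300, FBXO22, KAT2B, MAPK7, SMURF1 and VHL in starved against fed cells, CTBP2, HDAC2, MAP2K5, MAP3K3, SMURF1 and VHL in knockdown against starved cells, and EP300, PDGFA and SMAD3 in knockdown against fed cells.

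With replicate number as a block, 1, 4 and 2 members were called in starved against fed, knockdown against starved and knockdown against fed cells (4826, 5199 and 2049 genes), KLF5 being the call lost. Same-numbered libraries deviated together with correlations of −0.56 to 0.35, 0.09 to 0.62 and −0.42 to 0.03 in these comparisons. Not every correlation was over 0.1 in any comparison, so the numbers were not taken as pairs. In knockdown against starved cells all 3 were positive, and 3 of 3 knockdown and 2 of 3 starved libraries correlated best with their own number, a hint from the data and not from the design.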
